A study of Mus musculus with 12 samples.

Results

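Cytosolic ribosomal proteins are the protein parts of the ribosome that works in the cytoplasm. Their genes were taken as all genes whose single annotated symbol starts with Rpl or Rps followed by a digit, or is Rplp0, Rplp1, Rplp2 or Rpsa, with the Rps6k kinases and symbols of pseudogenes left out. The rule found 48 of 12393 genes measured. They comprised 42 core proteins, of which 22 belong to the large and 20 to the small subunit, and 6 paralogs (Rpl3l, Rpl7l1, Rpl22l1, Rpl39l, Rps4l and Rps27l). A further 30 ribosomal protein symbols stood only on probe sets annotated with several genes, so that genes such as Rpl3 and Rpl5 were not among the 48.

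RNA was measured on 12 one-colour Affymetrix mouse 430A arrays. The cells were BMEL (bipotential mouse embryonic liver) cells, progenitors able to become either hepatocyte-like or bile-duct-like. Their lines 9A1 and 14B3 were isolated independently from embryonic liver of CBA/J x C57Bl/6J mice at 14 days post coitum. Each line was grown in basal culture, as aggregates for 5 days, and in Matrigel, a basement membrane gel, for 10 days, except that the first 14B3 Matrigel replicate is labelled 5 days. This makes 6 groups with 2 arrays in each, and no other agent or allele separates them in the labels.

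A ribosome is built in the nucleolus from ribosomal RNA, which RNA polymerase I transcribes, and from ribosomal proteins imported from the cytoplasm, with the help of many assembly factors. The small subunit decodes the message, and the large subunit joins amino acids and carries the acidic stalk that recruits translation factors. Most messenger RNAs of ribosomal proteins start with a C followed by a run of pyrimidines, the terminal oligopyrimidine (TOP) tract, through which mTOR signalling controls their translation.

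Values were log2 of the deposited signal intensity, and a gene with several probe sets was represented by the brightest. Array medians over all probe sets ran from 268 to 281. The 8 measured hepatoblast and hepatocyte markers averaged 10.4 to 10.9 on the basal arrays, 12.0 to 12.9 on the aggregate arrays and 12.4 to 12.7 on the Matrigel arrays. Of these 8 markers, 7 lay above the array median in basal culture and all 8 in the other cultures. The 5 bile duct markers measured averaged 9.07 to 9.48, 9.69 to 10.5 and 9.91 to 10.8 on the basal, aggregate and Matrigel arrays, and 2, 3 and 3 of them lay above the array median. Erythroid markers (6 genes), leukocyte markers (7), endothelial markers (7) and stellate markers (7) averaged between 6.43 and 7.96 on every array, below the median over all genes of 8.38 to 8.46. None of the erythroid markers had a mean above the array median in any culture, while 2 leukocyte markers did in each. Of the stellate markers 1 did in each culture, and of the endothelial markers 1 in basal culture and in aggregates. The 3' to 5' ratio of the Gapdh control probe sets stayed between -0.10 and 0.11 (log2) on all 12 arrays, and that of actin between 0.17 and 0.39. The 18S ribosomal RNA control was higher in replicate 2 than in replicate 1 in all 6 groups, at 8.93 to 10.4 against 7.91 to 8.11 (log2). The hybridization controls were also higher in replicate 2 than in replicate 1 in all 6 groups. They stood apart on the second 14B3 aggregate replicate, at a mean log2 of 10.8, and on the first 9A1 Matrigel replicate, at 8.96. In bulk RNA, fewer cells of a type and less RNA per cell cannot be told apart.

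The letters around the transcription start of 8 members are shown here because the TOP tract is the sequence feature that the family is known for, and because these members include large falls, a mid-sized fall and no call. Each stretch runs 5′ to 3′ from 40 bases before to 15 bases after the annotated start in RefSeq (GRCm38.p6), so that its last 15 bases lie in the first exon. Capitals mark the tract, searched on the gene's strand as a C followed by at least 4 C or T, with its first base within 10 bases of the start on either side.
Rpl14: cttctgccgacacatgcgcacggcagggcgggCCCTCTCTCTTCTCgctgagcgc
Rpl35: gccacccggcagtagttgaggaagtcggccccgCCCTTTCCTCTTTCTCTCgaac
Rps18: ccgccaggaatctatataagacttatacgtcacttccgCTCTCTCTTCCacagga
Rps6: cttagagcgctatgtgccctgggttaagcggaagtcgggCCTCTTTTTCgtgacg
Rpl39: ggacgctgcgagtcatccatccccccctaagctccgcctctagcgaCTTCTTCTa
Rps27: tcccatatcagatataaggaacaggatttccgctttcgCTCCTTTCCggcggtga
Rpsa: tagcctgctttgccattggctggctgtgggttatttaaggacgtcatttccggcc
Rps25: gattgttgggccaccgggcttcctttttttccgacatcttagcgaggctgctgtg
The windows lie at chr9:120571477-120571531 (plus strand) for Rpl14, chr2:39005117-39005171 (minus) for Rpl35, chr17:33955651-33955705 (minus) for Rps18 and chr4:86857353-86857407 (minus) for Rps6. Those of Rpl39, Rps27, Rpsa and Rps25 lie at chrX:37085208-37085262 (minus), chr3:90213634-90213688 (minus), chr9:120127726-120127780 (plus) and chr9:44407674-44407728 (plus). Rpsa and Rps25 held no run that met the rule within these bounds. In Rps25 a pyrimidine run begins further before the start than the bounds allow.

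A promoter was given for 42 of the 48 members, with 50 annotated starts. By the rule above, 26 of these 42 genes (61.9%) had a tract at a start, against 31.5% of 27025 genes. The motif CCGGAAG, on either strand of the 300 bases around the start, was present in 21 of the 42 and in 9.93% of all genes. The E-box CACGTG was found in 9.52% of members and 8.09% of all genes, and TATAAA in 14.3% and 15.7%, both searched on either strand. The motifs describe letters in these windows and were not tested as sites.

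The first comparison set aggregates against basal culture, to see how the family changes when the cells leave the basal state. Levels of ribosomal protein transcripts fell across both subunits. Of the 48 genes, 42 fell and 0 rose at an adjusted p of 0.05 (limma, Benjamini-Hochberg over all genes), where 23.4% of all genes fell and 22.9% rose. At an unadjusted p under 0.05, a looser threshold to which these shares do not apply, again 0 rose and 42 fell. The median change was -0.87 (log2), which is 45.2% lower, against a median of 0.10 over all genes. Changes ranged from -2.05 to 0.12 with an SD across the 48 genes of 0.46. Scaled to the hybridization controls, which differed between arrays as given above, 20 fell with a median of -1.11, where the median of all genes was -0.15. The 23.4% of all genes is from the main scaling and does not apply to this count of 20.

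Markers of cell types changed in the same comparison. Among the hepatoblast and hepatocyte markers 5 of 8 rose (Apoa1 by 5.37, Alb 4.38, Ttr 4.15, Afp 2.08 and Hnf4a 0.94), while Foxa2 (-1.51) and Krt18 (-1.32) fell. Of the 5 bile duct markers, Epcam (5.00) and Cftr (2.54) rose and Krt7 (-2.29) and Sox9 (-0.47) fell. Of the leukocyte markers 3 of 7 rose (Csf1r by 1.48, Cd3e 0.43 and Ptprc 0.41), of the stellate markers 1 of 7 (Reln by 0.28), and of the endothelial and erythroid markers none was called. Their part in the changes of the 48 genes was not tested.

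Array by array, the median log2 level over the 48 genes was 13.4 on each of the 4 basal arrays. In aggregates it was 12.4 and 12.3 in line 9A1 and 12.5 and 12.4 in line 14B3. In Matrigel it was 13.1 and 13.2 in 9A1 and 13.3 and 13.2 in 14B3. The aggregate arrays were therefore the lowest and the Matrigel arrays lay between the other cultures. Over all genes the array medians lay between 8.38 and 8.46.

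**Figure D1:**
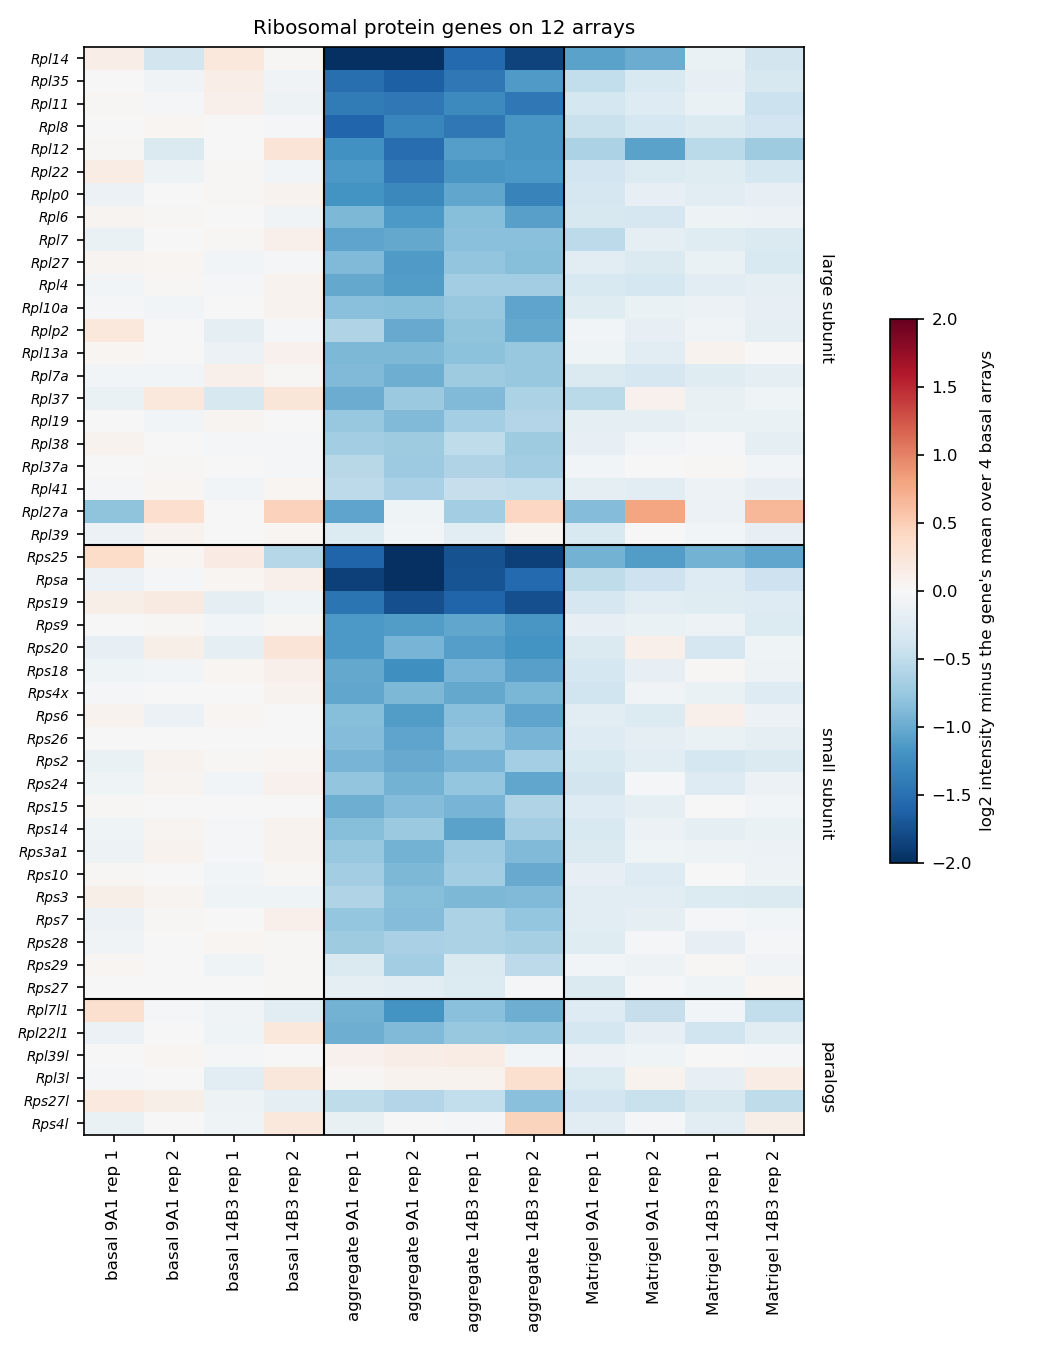
Log2 intensity of each of the 48 ribosomal protein genes (rows) on the 12 arrays (columns), as the difference from the gene's own mean over the 4 basal arrays, with rows grouped into large subunit, small subunit and paralogs and colours capped at the ends of the scale. The 4 aggregate columns are blue in nearly every core row, the Matrigel columns are paler, and Rpl39, Rps27 and the paralogs Rpl39l, Rpl3l and Rps4l stay pale throughout.

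Among small subunit proteins, Rpsa (Entrez Gene 16785), which also has been described as a laminin receptor, had log2 values of 13.64, 13.71, 13.80 and 13.86 in basal culture. In aggregates the values were 11.88, 11.65, 12.03 and 12.20, and in Matrigel 13.25, 13.34, 13.50 and 13.33. The cultures did not overlap. Its level was 71.6% lower in aggregates (-1.81 ± 0.10 SE, adjusted p = 2.61e-08). Rps19 (Entrez Gene 20085), needed for maturation of the small subunit, read 13.27, 13.34, 12.96 and 13.07 in basal culture and 11.69, 11.40, 11.56 and 11.40 in aggregates. All aggregate arrays lay below all basal arrays, a fall by 1.65 (SE 0.10, adjusted p = 6.93e-08). Rps25 (Entrez Gene 75617), which some viral messages need for initiation, had basal values of 9.63, 9.31, 9.43 and 8.70 and aggregate values of 7.66, 7.20, 7.52 and 7.40. Its probe set was dim, yet the groups stayed apart by more than their spread (-1.82 ± 0.16 SE, adjusted p = 1.86e-06).

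In all, 19 of the 20 core small subunit genes fell, with a median of -0.89. Rps6, the substrate of S6 kinase, went from 8.94, 8.75, 8.90 and 8.87 to 8.02, 7.75, 8.03 and 7.80, which is 48.8% lower (adjusted p = 1.13e-05). Rps18, which sits in the head of the subunit, fell by 1.07 and the X-linked Rps4x by 0.97. The smallest called fall was that of Rps29, from 13.96, 13.94, 13.84 and 13.95 to 13.64, 13.23, 13.64 and 13.41 (-0.44 ± 0.11 SE, adjusted p = 0.00499). Rps27 was the core gene of this subunit without a call: its basal values of 8.87, 8.86, 8.85 and 8.89 stood against 8.69, 8.65, 8.59 and 8.83 (-0.18, adjusted p = 0.163). Its 4 aggregate arrays were still below the 4 basal arrays.

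Of the 22 core large subunit genes, 20 fell, with a median of -0.88. Rpl14 (Entrez Gene 67115) read 9.51, 9.01, 9.60 and 9.41 in basal culture and 7.14, 6.85, 7.82 and 7.54 in aggregates, 75.8% lower and the largest change among the 48 (-2.05 ± 0.13 SE, adjusted p = 1.39e-07). Rpl35, which lies near the exit of the peptide tunnel, went from 13.61, 13.54, 13.75 and 13.55 to 12.10, 11.98, 12.19 and 12.47 (-1.43, adjusted p = 3.89e-07). Both changes exceeded the spread within each culture. Rpl11, which can bind and inhibit Mdm2 when assembly of ribosomes is disturbed, fell by 1.38 and Rpl8 by 1.37. Rpl22 fell by 1.22, Rpl7 by 0.94, Rpl10a by 0.88, Rpl13a by 0.85 and Rpl38 by 0.65, each with an adjusted p below the threshold. Rpl41, the smallest of the ribosomal proteins, moved from 14.17, 14.23, 14.14 and 14.22 to 13.67, 13.54, 13.73 and 13.70, 30.7% lower.

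The 2 large subunit genes without a call had dim probe sets, at a mean log2 of 8.38 for Rpl39 and 7.32 for Rpl27a. Rpl14 (8.49) and Rpl12 (8.58), with probe sets about as dim as that of Rpl39, fell. The part of brightness in these calls was not tested. Rpl39, a small protein that lines the peptide tunnel, read 8.35, 8.53, 8.47 and 8.50 in basal culture and 8.19, 8.41, 8.23 and 8.52 in aggregates, with overlap (-0.12, adjusted p = 0.401). Rpl27a read 6.60, 7.73, 7.41 and 7.87 against 6.34, 7.31, 6.71 and 7.81. For Rpl27a the second replicate was higher than the first in all 6 groups. Its change of -0.36 had an adjusted p of 0.486, and of 0.0411 with the replicate number as a block.

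The acidic stalk was represented by Rplp0, its base, and Rplp2. Rplp0 had basal values of 13.59, 13.73, 13.74 and 13.79, aggregate values of 12.52, 12.43, 12.68 and 12.38 and Matrigel values of 13.38, 13.54, 13.49 and 13.55. It was 56.8% lower in aggregates (-1.21 ± 0.10 SE, adjusted p = 9.31e-07). Rplp2 went from 13.90, 13.68, 13.51 and 13.65 to 13.08, 12.68, 12.89 and 12.66, 44.8% lower (adjusted p = 5.63e-05). Neither gene's aggregate values overlapped its basal values.

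Of the 6 paralogs, 3 fell in aggregates. Rpl22l1, the paralog of Rpl22, read 12.12, 12.25, 12.16 and 12.46 in basal culture and 11.27, 11.36, 11.50 and 11.48 in aggregates (-0.84, adjusted p = 2.47e-05). Rpl7l1, which takes part in assembly, fell by 0.99 and Rps27l, a target of p53, by 0.61. Rpl3l, the muscle form of Rpl3, read 5.68 to 6.12 in basal culture and 5.92 to 6.21 in aggregates. Rpl39l, the testis form of Rpl39, read 4.87 to 4.96 and 4.86 to 5.06, and Rps4l 5.62 to 5.96 and 5.61 to 6.21. These 3 genes lay far below the array median of all genes, overlapped between the cultures and had adjusted p-values of 0.478, 0.487 and 0.670.

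**Figure D2:**
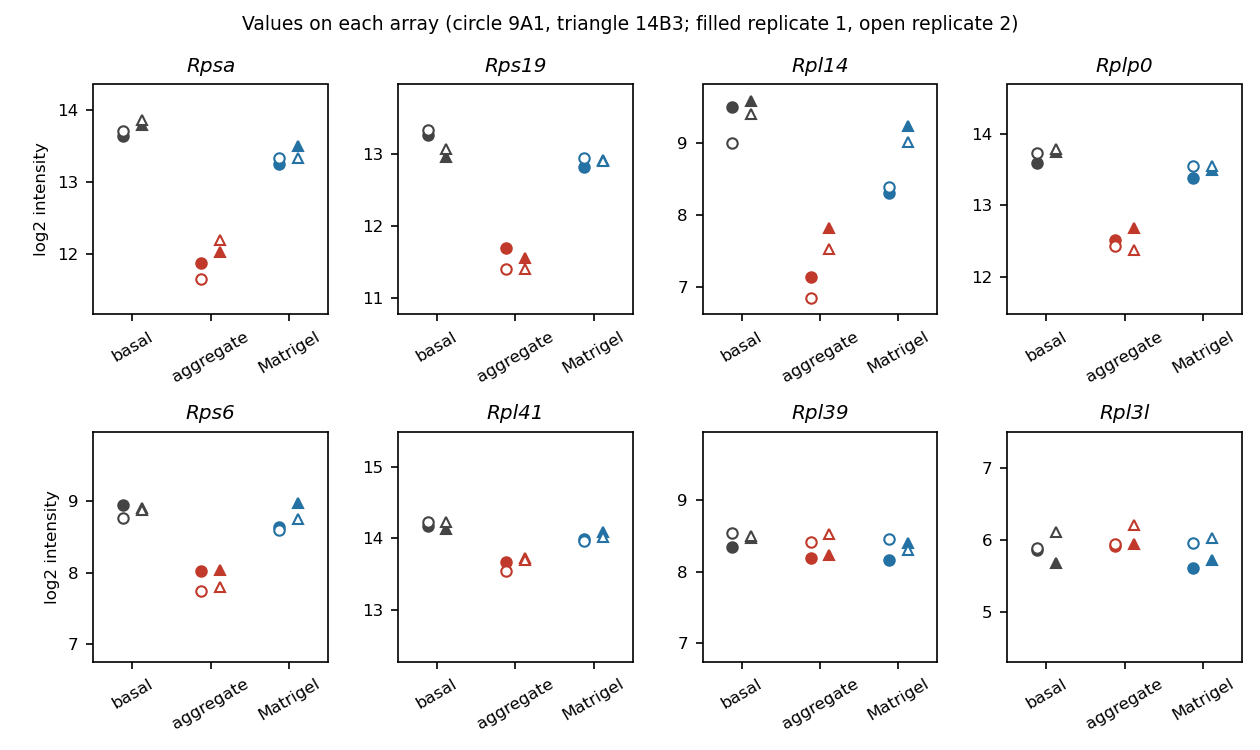
Log2 intensity of 8 ribosomal protein genes on every array by culture, with circles for line 9A1, triangles for 14B3, filled symbols for replicate 1 and open symbols for replicate 2; all panels span the same number of log2 units at different levels. Rpsa, Rps19, Rpl14, Rplp0, Rps6 and Rpl41 are lowest on all 4 aggregate arrays, and the values of Rpl39 and Rpl3l overlap between cultures.

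All 4 aggregate arrays lay below all 4 basal arrays for 43 of the 48 genes, as they did for 21.8% of all genes. The change was below 0 in both lines for 45 genes. Its median was -0.92 in line 9A1 and -0.82 in line 14B3, and 42 and 41 of the 48 genes fell in 9A1 and 14B3 taken singly, where 19.5% and 17.5% of all genes fell. Of the 242 other genes with a mean log2 above 12, 46.7% rose and 25.2% fell, with a median of 0.27. In Matrigel 32.6% of them rose and 10.3% fell. The 33 core members above the same level all fell in aggregates, with a median of -0.89. Within these 33 genes, those with the highest basal level had the smaller falls (Spearman rho 0.53 and Pearson r 0.42 between basal level and change, across genes on the same arrays, which are not independent replicates). The part of brightness in the size of the falls was not tested.

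Members with several probe sets give several readings annotated to the same gene, at several brightnesses. Whether these probe sets detect the same transcript was not tested. All probe sets of a gene changed in the same direction in 18 of 23 such members. The 4 probe sets of Rpl13a fell by 0.85, 0.96, 1.03 and 2.07 at mean log2 levels of 13.1, 12.9, 11.5 and 9.74. The 3 of Rpl27 fell by 0.91, 1.41 and 1.76 at 13.0, 10.6 and 10.5. Of 17 members with several probe sets above 9.5, the brightest fell less than the median of the others in 11. Of the 100 probe sets of the 48 genes, 69 of the 70 above 9.5 fell (median -0.92), against 14 of the 30 at or below it (median -0.24). Rpl35 had 5 bright probe sets that fell by 1.37 to 1.63 and a dim one at 7.77 with a change of 0.081, and the second probe set of Rpl22, at 9.16, changed by -0.01.

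Genes with and without a tract by the search rule given above fell. Of the 22 core genes with a tract at an annotated start, such as Rpl14, Rpl35 and Rps18 above, 19 fell, with a median of -0.89 and a range of -2.05 to -0.12. All 15 core genes with a promoter but no tract by this rule, such as Rpsa and Rps25, fell. Their median was -0.84, with a range of -1.82 to -0.53. Some of these 15, such as Rps25 and Rpl7a, hold a pyrimidine run that begins further before the start than the rule allows. The split therefore follows the rule and does not sort messages with a TOP tract from those without. Rpl39 and Rps27, shown above with tracts, were among the genes not called.

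Matrigel culture was compared with basal culture in the same way, against the same 4 basal arrays. The falls were smaller, and 13 of the 48 genes fell while 0 rose, against 14.3% of all genes lower and 14.1% higher. At an unadjusted p under 0.05, a looser threshold to which these shares do not apply, 20 fell and 0 rose. The median change was -0.18 (11.7% lower), against -0.04 over all genes, and 47 of the 48 changes were below 0. All 4 Matrigel arrays lay below all 4 basal arrays for 26 genes, and for 13.6% of all genes. In the same comparison 5 of 8 hepatoblast and hepatocyte markers rose, among them Apoa1 by 5.00 and Alb by 4.46, as did the bile duct markers Epcam (4.74) and Cftr (2.21). The stellate markers Acta2 (1.04), Col3a1 (1.03) and Col1a1 (0.69), the leukocyte markers Csf1r (0.60) and Cd68 (0.46) and the endothelial marker Cdh5 (0.50) rose too, none of the erythroid markers was called, and the part of these changes was not tested.

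The largest of these falls was that of Rps25, whose Matrigel values were 8.32, 8.16, 8.32 and 8.23, 50.4% below basal culture (-1.01 ± 0.16 SE, adjusted p = 0.000614). Rpl12, at the base of the stalk, read 9.28, 8.96, 9.24 and 9.51 in basal culture and 8.61, 8.17, 8.71 and 8.54 in Matrigel (-0.74 ± 0.13 SE, adjusted p = 0.00122). Rpl14 had Matrigel values of 8.32, 8.39, 9.24 and 9.02, of which the 14B3 pair reached into its basal range (-0.64, adjusted p = 0.00329). Rpsa was 24.2% lower (adjusted p = 0.00787), and Rps27l 24.8% lower (adjusted p = 0.00956). The other 8 genes called, Rpl8, Rpl35, Rpl22, Rpl7, Rpl11, Rps2, Rpl4 and Rpl7a, changed by -0.37 to -0.26. For Rpl22 the second, dimmer probe set rose in Matrigel (0.52, adjusted p = 0.0026), and the mean of both probe sets changed by 0.10.

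Genes without a call in Matrigel included Rplp0 (-0.22, adjusted p = 0.125), Rps19 (-0.26, adjusted p = 0.0673), Rps6 (-0.13) and Rpl13a (-0.06). With the replicate number as a block, Rpl22l1 (-0.28), Rpl7l1 (-0.32) and Rps3 (-0.26) passed as well, with adjusted p-values of 0.0252, 0.0154 and 0.0341 in place of 0.0598, 0.0869 and 0.0528, and the count became 16. The count of 13 was sensitive to single arrays and to scaling: it was 6 without the first or the second 9A1 basal array, the first 14B3 basal array or the first 9A1 Matrigel array, 7 without the second 14B3 basal array, 8 without the second 9A1 Matrigel array, 5 without the second 14B3 Matrigel array, 6 with arrays scaled to their 75th percentile, and 0 with arrays scaled to the hybridization controls, where the median was -0.31 and that of all genes -0.17. Rps25, Rpl12, Rpl14, Rps27l and Rpsa were the 5 that passed without the second 14B3 Matrigel array.

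**Figure D3:**
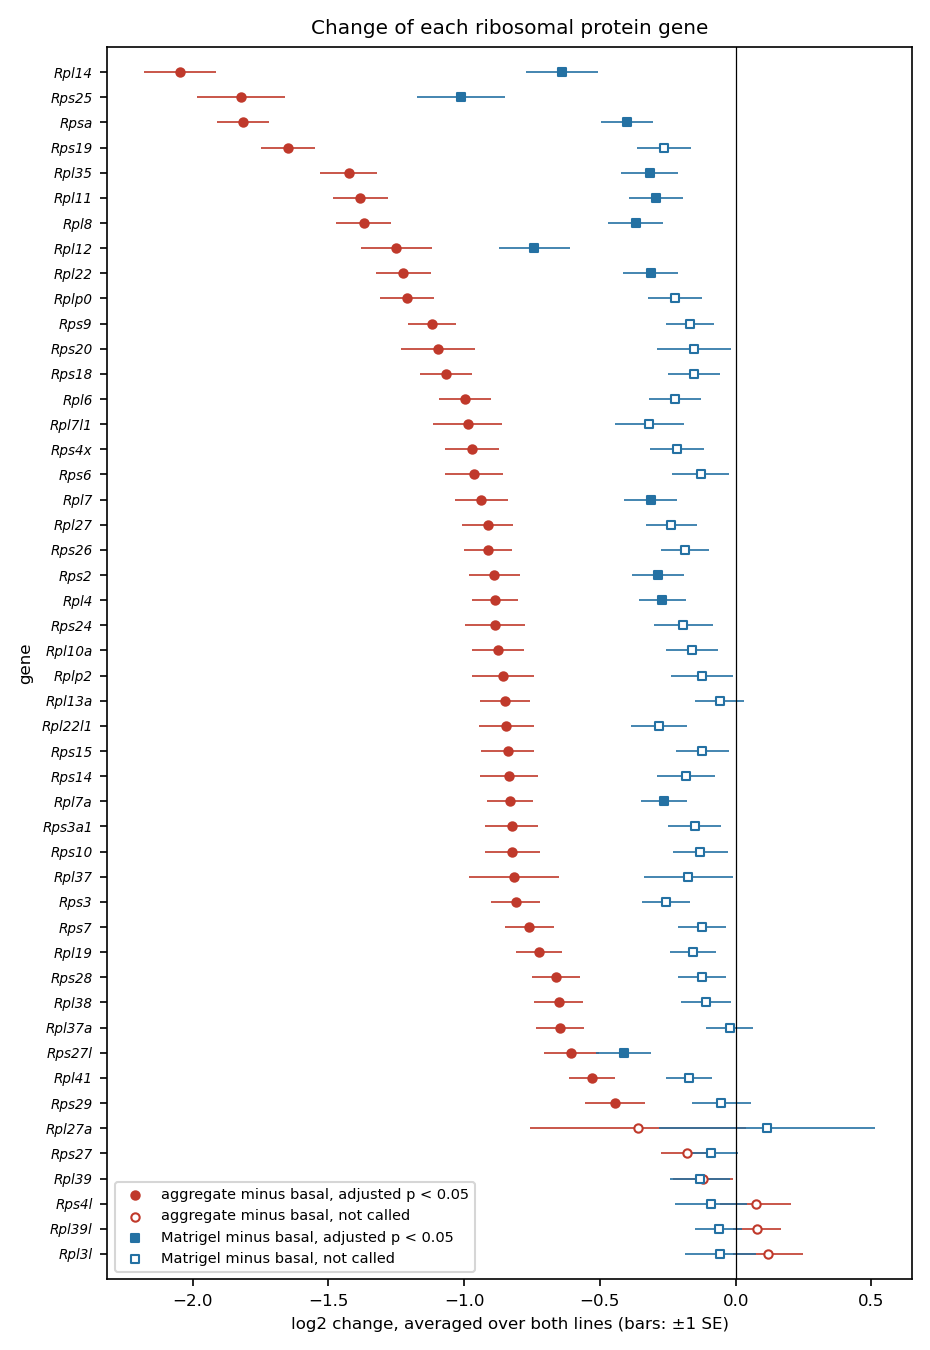
Change of each of the 48 genes from basal culture to aggregates (red circles) and to Matrigel (blue squares), averaged over both lines, on the log2 scale with bars of 1 SE and filled symbols where the adjusted p is under 0.05. All 42 called changes in aggregates and all 13 in Matrigel lie to the left of 0, and most blue squares lie between -0.4 and 0.

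The cultures away from the basal state were then compared with each other, on the same arrays as above. With Matrigel set against aggregates, 41 of the 48 genes were up and 0 down, where 13.9% of all genes were higher and 12.7% lower. At an unadjusted p under 0.05, a looser threshold to which these shares do not apply, the counts were also 41 and 0. The median difference was 0.67, against -0.10 over all genes. Scaled to the hybridization controls, the median was 0.79 (0.02 over all genes) and 3 genes passed as higher (Rpsa, Rpl14 and Rps19). The shares of all genes above are from the main scaling and do not apply to this count of 3. With plain _at probe sets, which 24 of the genes have, it was 0.31. The largest were Rpsa at 1.41, or 2.67-fold (adjusted p = 3.66e-06), Rpl14 at 1.41, Rps19 at 1.38, Rpl35 at 1.11 and Rpl11 at 1.09. Rplp0 was 1.98-fold higher and Rps6 1.79-fold. Rps27l, which fell in both cultures, differed by 0.19 between them (adjusted p = 0.174).

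All 4 aggregate arrays lay below all 4 Matrigel arrays for 41 of the 48 genes and for 11.8% of all genes. The order aggregate, Matrigel, basal held without overlap in 25 of the 48 genes and in 6.29% of all genes. By means it held in 43 of the 48 and in 25.7% of all genes. Rpl27a was higher by 0.48 (adjusted p = 0.373), and passed with the replicate block (adjusted p = 0.0179). Days in culture differed along with the kind of culture (5 days for aggregates, 10 for most Matrigel arrays), so the effects of time and of culture cannot be told apart. The Matrigel array labelled 5 days had a median of 13.3 over the 48 genes, beside 13.1 to 13.2 on those labelled 10 days.

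The lines were compared to ask whether the family differs between the 9A1 and 14B3 isolates. Over the 3 cultures, 1 of the 48 genes was higher in 14B3 and 0 were lower, against 2.57% of all genes higher and 3.45% lower. The share higher lay near that of all genes. At an unadjusted p under 0.05, a looser threshold to which these shares do not apply, 4 were higher and 0 lower. The gene called was Rpl14, with a mean log2 of 8.77 in 14B3 and 8.20 in 9A1 (0.57 ± 0.11 SE, adjusted p = 0.00818), and was not called with scaling to the hybridization controls. Its 14B3 arrays were higher by 0.25 in basal culture, 0.69 in aggregates and 0.78 in Matrigel, and among these the Matrigel difference passed (adjusted p = 0.0424). With the replicate block Rpl27a (0.41, adjusted p = 0.0417 in place of 0.649) was called too, which made 2. That block is a fixed term within each line, so its p-value for the line leaves out the spread between replicates, and with a block shared by both lines the count was 1. Among the cell type markers, Csf1r (-1.13), Cftr (-1.01), Krt7 (-1.0), Acta2 (-0.77) and Sox9 (-0.57) were lower in 14B3 and Cdh5 (0.64) was higher. The median over the 48 was 0.05, close to the 0.04 of all genes.

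The response to culture was also tested for a difference between lines. For aggregates, 0 of the 48 genes passed in either direction, where 0.468% of all genes did, and 0 had an unadjusted p under 0.05. For Matrigel the counts were again 0 and 0, where 0.686% of all genes passed. Differences in response (14B3 minus 9A1) ran from -0.16 for Rps20 to 0.46 for Rpl7l1 in aggregates, and from -0.17 for Rps20 to 0.53 for Rpl14 in Matrigel. The standard error of such a difference was 0.26 for Rpl14.

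The genes that build and serve the ribosome were followed beside the 48, in lists that partly share members. The counts of each list below stand beside all genes, of which 23.4% fell and 22.9% rose in aggregates. In Matrigel 14.3% of all genes fell and 14.1% rose. Of 64 assembly factors, 61 fell in aggregates and 1 rose, with a median of -1.43, and 57 fell and 1 rose in Matrigel, with a median of -0.77. The snoRNP proteins Nop58, Nop56 and Nhp2 fell the most in aggregates, with changes of -2.80, -2.71 and -2.59. Nop56 read 11.24, 11.12, 11.39 and 11.44 in basal culture, 8.50, 8.44, 8.80 and 8.62 in aggregates and 9.65, 9.85, 10.43 and 10.06 in Matrigel, with no overlap. The one that rose was Sbds, which helps to release an assembly factor from the large subunit, by 0.83 in aggregates and 0.44 in Matrigel.

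In the RNA polymerase I list 10 of 14 genes fell in aggregates (median -0.87) and 8 in Matrigel (median -0.39), with 0 higher in either. Polr1a, the largest subunit of the polymerase, fell by 1.07 and 0.83, and Taf1d by 1.18 and 1.41. Cavin1, listed for its part in transcript release but also a coat protein of caveolae, fell by 1.42 in aggregates.

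Translation factors fell as well. Of 30 initiation factors, 23 fell and 2 rose in aggregates (median -0.98), and 16 fell and 1 rose in Matrigel (median -0.34). Eif3d fell by 1.58 and Eif4a1, the helicase of the cap-binding complex, by 1.41. Eif1b (0.50) and Eif4a2 (0.39) rose in aggregates, and Eif1b (0.40) rose in Matrigel. Of 14 elongation and release factors, 10 fell in aggregates (median -0.69) and 8 in Matrigel (median -0.43), with 0 higher. Eef1a1, which delivers aminoacyl-tRNA, had a change of -0.21 in aggregates (adjusted p = 0.0647). All 20 aminoacyl-tRNA synthetase genes measured fell in aggregates (median -1.07) and 17 in Matrigel (median -0.68), with the valine, lysine and leucine enzymes Vars, Kars and Lars lower by 1.97, 1.96 and 1.95 in aggregates.

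Other messages known to carry a TOP tract moved with the ribosomal proteins. Of 20 such genes, 17 fell in aggregates (median -0.98) and 11 in Matrigel (median -0.35), and 0 rose in either. Npm1, a nucleolar chaperone, read 13.33, 13.32, 13.27 and 13.36 in basal culture, 11.17, 10.80, 11.40 and 11.11 in aggregates and 12.60, 12.53, 12.77 and 12.57 in Matrigel, without overlap. It fell by 2.20 in aggregates. Tpt1, a classical TOP message, changed by -0.09 in aggregates (adjusted p = 0.466).

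Mitochondrial ribosomal protein genes fell too, with a median nearer to 0. Of 74 genes, 42 fell and 4 rose in aggregates, with a median of -0.32, and 23 fell and 0 rose in Matrigel, with a median of -0.23. Set against aggregates, Matrigel had 10 of the 74 higher and 2 lower (median 0.09), where 13.9% of all genes were higher and 12.7% lower. The share higher lay near that of all genes. Mrps28, of the small mitochondrial subunit, fell by 1.14 in aggregates. Mrps36 (0.63), Mrps31 (0.49), Mrpl14 (0.35) and Mrps34 (0.31) were the 4 that rose. The difference between this list and the 48 was not tested.

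**Figure D4:**
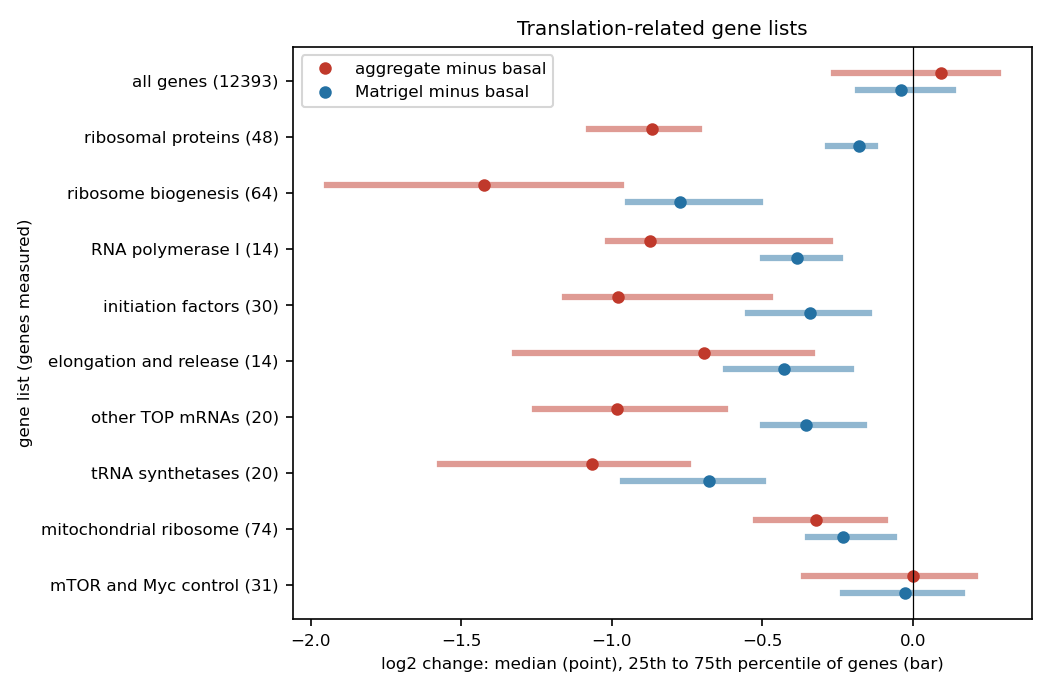
Median (points) and 25th to 75th percentile (bars) of the log2 change in aggregates (red) and in Matrigel (blue) against basal culture, over the genes of each list, with the number measured in brackets. Ribosomal proteins have a median of -0.87 in aggregates and -0.18 in Matrigel, assembly factors -1.43 and -0.77, and all genes 0.10 and -0.04.

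Among 31 genes of the mTOR and Myc pathways, which control ribosome production, 6 rose and 7 fell in aggregates with a median of 0.00, beside 22.9% and 23.4% of all genes. In Matrigel 4 rose and 4 fell, beside 14.1% and 14.3%. These shares lay near those of all genes. Myc, which activates transcription of ribosomal protein and assembly genes, read 11.22, 10.55, 11.25 and 10.36 in basal culture, 8.27, 8.09, 8.91 and 9.06 in aggregates and 9.67, 9.80, 10.19 and 9.98 in Matrigel. It fell by 2.26 in aggregates and by 0.94 in Matrigel. Its antagonist Mxd1 rose by 1.05 and 1.47, Sesn1, a negative regulator of mTOR, by 2.15 and 0.71, and Deptor, an mTOR inhibitor, by 0.92 in aggregates. Other negative regulators of mTOR fell in aggregates: Ddit4l by 1.35, Ddit4 by 0.90, Sesn3 by 0.79 and Sesn2 by 0.38. Ddit4l also fell in Matrigel, by 1.14. Eif4ebp1, the repressor of the cap-binding factor, fell by 0.90 and 0.79, and Larp1, which binds TOP messages, by 0.79 and 0.62. Of 10 genes for import and p53 sensing, 9 fell in each culture, with medians of -1.51 in aggregates and -0.71 in Matrigel, among them Mdm2 by 1.47 and 1.36. Cdkn1a, a p53 target, had a change of 0.30 in aggregates (adjusted p = 0.0643).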

How the data were processed

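The values deposited for each probe set are signal intensity from RMA, run by the authors in R 2.3.1, per the submitters' processing notes. Values between 14.4 and 27318 show a linear scale, so log2 was taken. Arrays give no read depth, and their number limits precision. The design text calls the replicates biological and says no more, so p-values measure the spread between these samples, which may be technical.

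Of 22690 probe sets, 20380 carried 1 symbol in GEO's platform annotation, which can be old, 691 several and 1555 none, and 64 were controls. The brightest single-symbol probe set stood for each of 12393 genes, with no filter on dim genes. A mean for each of 6 groups was fitted with limma 3.58.1 (lmFit, eBayes) in R 4.3.3, with 6 residual degrees of freedom. Culture contrasts were averaged over lines and the line contrast over cultures. Tests were two-sided, adjusted over all genes at 0.05. The members and lists were chosen with earlier results of these data known. Named genes were the 5 largest called changes per direction and contrast, members fixed by name, and up to 3 called genes of each other list per contrast. Rpl27a, Rpl4, Rpl7a, Rpl8, Rpl27, Rpl41, Rps2, Rps3, Rps4l, Rps18, Rps20, Rps29 and further list genes were named after their values were seen.

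The change from replicate 1 to replicate 2 was correlated between groups across genes (r from 0.10 to 0.64 over 15 pairs of groups), so equal numbers were taken to pair arrays. A second fit used these numbers as a block inside each line, and is given where a call changes. On simulated aggregate and basal arrays with 12393 genes, 200 of them changed, 45.7% of changes of 0.5 log2 units were called, 90.0% of those of 1 and 99.2% of those of 2, and 5.36% of calls were false. The simulated noise was independent between arrays. In the data 22.9% of genes rose and 23.4% fell in aggregates, and replicate changes were correlated between groups. The simulated rates therefore do not carry over to the calls given here. Alternatives were other scalings, probe set choices, variance models, each line alone and leaving out each array. Figures used Python 3.11.15 and matplotlib 3.10.9.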

Additional observations from a re-analysis of the deposited data

Results flagged for a closer look

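In 72 sets of 4 arrays of a culture, 3 single values stood apart from the other 3 arrays of their culture by more than Dixon's 95% limit, and chance flags about 1 in 20. The second 9A1 aggregate replicate had a log2 of 10.06 for Rpl22, where the other aggregates read 10.32 to 10.33. The first 14B3 aggregate replicate had 13.29 for Rpl38, where the others read 13.09 to 13.11. The second 14B3 aggregate replicate, the array with the highest hybridization controls, had 6.21 for Rpl3l, where the others read 5.92 to 5.95.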

How the results depend on the processing

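The count of 42 ribosomal protein genes lower in aggregates was 42 in each of the 12 fits that left out an array, and 0 rose. Leaving out an array gave 5 to 13 genes lower in Matrigel, 39 to 41 higher in Matrigel than in aggregates, and 1 higher in 14B3. With the replicate number as a block the counts were 43, 16, 42 and 2, and with a block shared by both lines 42, 19, 42 and 1. The shared block also gained Rps19 (adjusted p = 0.0395), Rpl27 (0.0335) and Rpl6 (0.0481) in Matrigel, and beside these and the calls given with the results no call of a named ribosomal protein gene changed.

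Scaling to the hybridization controls, chosen after seeing the data, moved the median of all genes from 0.10 to -0.15 in aggregates, and left 20 genes lower in aggregates, 0 lower in Matrigel, 3 higher in Matrigel than in aggregates (Rpsa, Rpl14, Rps19) and 0 higher in 14B3. The median of the 48 was then -1.11 in aggregates, -0.31 in Matrigel, 0.79 between Matrigel and aggregates, and -0.26 in place of 0.05 between the lines, where all genes moved to -0.28. Plain _at probe sets, which exist for 24 of the genes, gave 14 lower in aggregates, 8 lower in Matrigel and 11 higher in Matrigel than in aggregates (median 0.31), with Rpl35 at 0.081 in aggregates and at -0.27 in Matrigel against aggregates, from its dim probe set. With the mean of its probe sets Rpl22 was at 0.10 in Matrigel. Taking each of the 100 probe sets singly gave 83 lower in aggregates, 27 lower and 1 higher (Rpl22, 0.52) in Matrigel, and 74 higher in Matrigel than in aggregates. The 102 probe sets annotated with several genes, chosen after seeing the data, gave 90 lower and 1 higher in aggregates, 23 lower and 2 higher in Matrigel, 85 higher in Matrigel than in aggregates, and 3 higher in 14B3. The shares of all genes given with the results are from the main fit and do not apply to the counts of these alternatives.

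For Matrigel against basal culture, 6 genes were lower with scaling to the 75th percentile, 6 without the pair of arrays with outlying controls, 3 with a change of at least 0.5 (Rps25, Rpl12, Rpl14), 4 in 9A1 alone and 2 in 14B3 alone (Rps25, Rpl12). No share of all genes was set beside these counts, and the causes were not tested. Of 2116 settings over 85 results for named genes, 1977 kept direction and call, 71 lost and 17 gained the call, 48 moved and 3 reversed. The difference in response between lines gave 0 genes in every setting run.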
